A study of Arabidopsis thaliana with 24 samples.

Results

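The anthocyanin genes described here are 8 genes chosen by name from the 33602 in the deposited count table of whole seedlings of *Arabidopsis thaliana*. They are DFR (AT5G42800), LDOX (AT4G22880), UGT79B1 (AT5G54060), UGT75C1 (AT4G14090), 5MAT (AT3G29590), TT19 (AT5G17220), PAP1 (AT1G56650) and TT8 (AT4G09820). The choice was made with earlier results of these data known. The study compared 2 natural accessions, Col-0, the reference strain, and IP-Svi-0, each grown at 10, 16, 23 and 27 °C, with 3 libraries in each of the 8 groups. Seeds were kept for 3 days of stratification on MS medium before transfer to the growth rooms, and the labels name no mutation, transgene or other treatment in either accession. The growth period after transfer was 23 days in the 10 °C groups, 12 in the 16 °C groups, 8 in the 23 °C groups and 7 in the 27 °C groups, so temperature and age cannot be told apart. The labels do not say whether the 3 libraries of a group came from separate cultures, so p-values measure the spread between these libraries, which may be technical.

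Anthocyanins are the red to purple flavonoid pigments that seedlings and leaves store in the vacuole, often in response to cold, strong light or sugar. The late steps begin with dihydroflavonol reductase, DFR, and leucoanthocyanidin dioxygenase, LDOX, which makes the coloured anthocyanidin. Glycosyltransferases and acyltransferases then decorate the molecule (UGT79B1 adds xylose, UGT75C1 adds glucose at the 5 position, 5MAT adds malonate), and the glutathione S-transferase TT19 is needed for its delivery to the vacuole. In Arabidopsis a complex of a MYB protein such as PAP1, a bHLH protein such as TT8, and the WD-repeat protein TTG1 activates these late genes.

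Libraries held 338784 to 870567 counts at genes, which was 1.41% to 3.61% of 22215651 to 24308874 reads, so 1 count was worth between 1.02 and 4.10 CPM. CPM is the count scaled to a common library total with TMM, and levels are given in this unit. The share of reads aligned to several places ran from 2.67% to 35.8% and was highest in Col-0 at 16 °C (22.9% to 35.8%). Most reads, 59.65% to 89.78% in each library, were recorded as falling on no counted gene feature. The libraries were strand-specific, but no source used here gives the strand setting of the counting, so a gene's counts may partly or wholly be reads of the other strand. In the whole seedlings, the summed level of 3 green-tissue genes was 9050 to 41400 CPM and that of 3 root genes 484 to 1250 CPM. The green sum was 29100 to 41400 in IP-Svi-0 at 10 °C, against 11600 to 18000 in Col-0 at 10 °C. The sum of 3 seed genes was 5.82 to 292 CPM, and at 27 °C it was 177 to 242 in IP-Svi-0, against 8.82 to 35.6 in Col-0. Of 3 seed-coat genes, BAN and TT2 were both at 0 in 5 of the 8 groups, while TT12 was detected in each, at means of 53 to 83.7 CPM. Of 2 flower genes, AP1 was at 0 in all 24 libraries and AP3 reached 4.41 CPM in Col-0 at 27 °C and 1.04 in IP-Svi-0 at 10 °C. The part of these tissue differences in the results was not tested. In such bulk samples fewer cells of a type and less RNA per cell cannot be told apart.

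The upstream sequences of DFR, LDOX and UGT79B1 are shown because edgeR called these 3 genes lower in IP-Svi-0 at each temperature. Each is the 250 bases before the annotated start, read 5′ to 3′ on the gene's own strand from the Col-0 reference (RefSeq, TAIR10.1), at chr5:17166033-17166282, chr4:12006210-12006459 and chr5:21938397-21938646, all on the minus strand. Capitals mark matches on either strand to the G-box CACGTG, the general bHLH motif CANNTG (the E-box, of which the G-box is one form) and the MYB-type motifs ACCNACC and ACCNAAC.
DFR: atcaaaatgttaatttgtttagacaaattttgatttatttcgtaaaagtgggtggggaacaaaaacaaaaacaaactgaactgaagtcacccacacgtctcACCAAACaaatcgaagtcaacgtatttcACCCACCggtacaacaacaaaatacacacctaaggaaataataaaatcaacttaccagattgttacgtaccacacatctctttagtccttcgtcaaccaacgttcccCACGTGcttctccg
LDOX: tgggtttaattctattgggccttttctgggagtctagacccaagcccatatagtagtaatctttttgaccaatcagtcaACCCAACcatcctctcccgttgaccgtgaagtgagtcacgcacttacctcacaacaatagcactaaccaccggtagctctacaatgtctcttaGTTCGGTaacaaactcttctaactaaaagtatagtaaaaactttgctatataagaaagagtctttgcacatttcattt
UGT79B1: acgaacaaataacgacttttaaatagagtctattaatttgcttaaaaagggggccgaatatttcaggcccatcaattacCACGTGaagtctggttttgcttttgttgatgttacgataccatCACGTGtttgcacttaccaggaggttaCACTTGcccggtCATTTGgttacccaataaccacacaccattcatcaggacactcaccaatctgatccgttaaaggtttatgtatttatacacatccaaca
The DFR window held a G-box that begins 14 bases before the start and a MYB-type motif of each kind, at 121 and 149 bases. The LDOX window held 2 matches to ACCNAAC, at 78 and 171 bases, and no E-box. The UGT79B1 window held 4 E-boxes, 2 of them G-boxes, and neither MYB-type motif. Among all 8 genes, the G-box was in 2 windows, the E-box in 5, ACCNACC in 4 and ACCNAAC in 5. Over 27443 promoters of the same length, these motifs were present in 6.49%, 55.3%, 6.1% and 14.5% respectively. A match describes letters of the Col-0 reference only, and the IP-Svi-0 sequence was not analysed here.

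Mean levels of 7 of the 8 genes were lower in IP-Svi-0 than in Col-0 at all 4 temperatures, and that of UGT75C1 at 3 of 4. The quasi-likelihood test of edgeR, adjusted by Benjamini-Hochberg over 10097 genes with enough counts, was used for all calls at an adjusted p under 0.05. DFR, LDOX, UGT79B1, UGT75C1 and TT19 were tested, while 5MAT, TT8 and PAP1 had 111, 82 and 40 counts in all and fell below the filter. For UGT79B1 and TT19 the filter level of 17.9 CPM was passed in Col-0 libraries alone (9 and 5 libraries), so a difference between accessions was partly built into their testing. Over the mean of the temperatures, DFR, LDOX, UGT79B1 and TT19 were called lower in IP-Svi-0 and none higher, against 16.7% of all tested genes called lower. By temperature, the anthocyanin genes called lower numbered 4 at 10 °C (14.4% of all tested genes), 4 at 16 °C (5.82%), 3 at 23 °C (4.88%) and 3 at 27 °C (5.56%), and none was called higher. DFR and LDOX, which passed the filter level in libraries of both accessions, were among those called at each temperature.

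**Figure D1:**
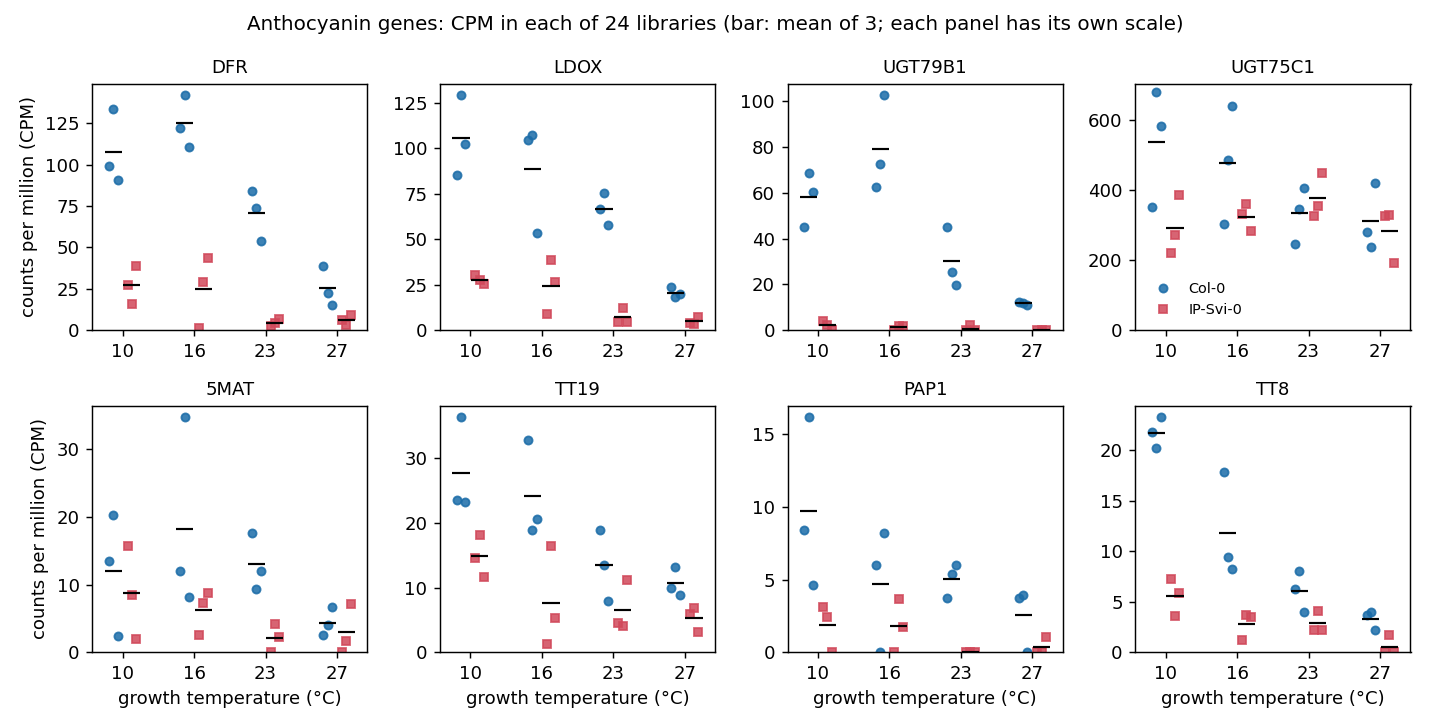
Level of each of the 8 anthocyanin genes in CPM (vertical axis, starting at 0, own scale per gene) against growth temperature in °C. Blue circles are Col-0 libraries, red squares IP-Svi-0 libraries and bars means of 3. For DFR, LDOX and UGT79B1 the Col-0 points lie above the IP-Svi-0 points at each temperature, whereas the UGT75C1 points of the accessions overlap at each.

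DFR, the first committed enzyme of the late branch, lies on chromosome 5 at 17164093 to 17166032 (TAIR10.1, minus strand, 6 exons). In Col-0 its level was 98.9, 133.3 and 90.7 CPM at 10 °C, 122.3, 141.8 and 110.8 at 16 °C, 84.0, 73.9 and 53.8 at 23 °C, and 38.5, 22.4 and 15.4 at 27 °C. In IP-Svi-0 it was 27.1, 15.7 and 38.8 CPM at 10 °C, 1.2, 29.3 and 43.7 at 16 °C, 2.2, 4.1 and 6.7 at 23 °C, and 5.9, 3.4 and 9.2 at 27 °C. The accessions did not overlap at any temperature, and the first IP-Svi-0 library at 16 °C stood far below the other two of its group. In order of mean level, Col-0 at 16 °C and at 10 °C overlapped, Col-0 at 23 °C lay below both, and Col-0 at 27 °C, with IP-Svi-0 at 10 and 16 °C, lay lower and overlapped each other. IP-Svi-0 at 23 and 27 °C had the lowest means and overlapped each other and IP-Svi-0 at 16 °C. The log2 difference, IP-Svi-0 minus Col-0, was -2.59 ± 0.26 (SE) over the mean of the temperatures (edgeR adjusted p = 1.32e-10, 12 libraries each), and all 4 temperatures were lower. It was -2.0 ± 0.41 at 10 °C (edgeR adjusted p = 0.000466), -2.43 ± 0.44 at 16 °C (0.000108), -3.98 ± 0.61 at 23 °C (7.55e-06) and -1.97 ± 0.58 at 27 °C (0.0232). The call at 27 °C was lost without Col-0 library 1 (edgeR adjusted p = 0.216), IP-Svi-0 library 1 (0.0682) or IP-Svi-0 library 2 (0.12) of that temperature.

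LDOX, on chromosome 4 at 12004726 to 12006209 (TAIR10.1, minus strand, 2 exons), makes the coloured anthocyanidin. In Col-0 it measured 85.5, 129.2 and 102.3 CPM at 10 °C, 104.4, 107.2 and 53.3 at 16 °C, 66.5, 75.3 and 57.8 at 23 °C, and 23.6, 18.5 and 19.8 at 27 °C. In IP-Svi-0 it measured 30.2, 27.8 and 25.2 CPM at 10 °C, 8.7, 38.4 and 26.2 at 16 °C, 4.5, 12.4 and 4.4 at 23 °C, and 3.9, 3.4 and 7.1 at 27 °C. The accessions again did not overlap at any temperature. Among the 8 groups, Col-0 at 10, 16 and 23 °C lay above all others. Of these, Col-0 at 10 °C lay wholly above Col-0 at 23 °C, and Col-0 at 16 °C overlapped both. IP-Svi-0 at 16 °C overlapped both IP-Svi-0 at 10 °C and Col-0 at 27 °C. IP-Svi-0 at 23 and 27 °C had the lowest means, and IP-Svi-0 at 23 °C overlapped IP-Svi-0 at 16 °C. The log2 difference was -2.23 ± 0.21 (SE) over the mean of the temperatures (edgeR adjusted p = 1.73e-11), and it was -1.87 ± 0.33 at 10 °C (4.26e-05), -1.94 ± 0.36 at 16 °C (0.000158), -3.18 ± 0.44 at 23 °C (1.32e-06) and -1.95 ± 0.50 at 27 °C (0.0072). With the share of reads aligned to several places as a covariate, the 16 °C difference was -1.37 and no longer called (edgeR adjusted p = 0.0992). Summed over libraries, Col-0 had 389 counts and IP-Svi-0 129, a depth-adjusted ratio of 3.72 (95% exact interval 3.04 to 4.57), and for DFR 448 and 121 counts gave 4.57 (3.73 to 5.63). These intervals cover counting error only.

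UGT79B1, the xylosyltransferase, lies on chromosome 5 at 21936746 to 21938396 (TAIR10.1, minus strand, 1 exon, no exon on the other strand). In Col-0 its level was 45.3, 68.6 and 60.5 CPM at 10 °C, 62.6, 72.5 and 102.6 at 16 °C, 45.1, 25.5 and 19.9 at 23 °C, and 12.4, 11.9 and 11.02 at 27 °C. In IP-Svi-0 it was 4.2, 2.4 and 0 CPM at 10 °C, 0, 1.8 and 1.7 at 16 °C, 0, 2.1 and 0 at 23 °C, and 0 in each library at 27 °C. It was the one gene of the 8 for which all 12 Col-0 libraries lay above all 12 IP-Svi-0 libraries. How many of all tested genes separate in this way, or at each temperature as DFR and LDOX did, was not counted. The UGT79B1 counts were 228 for Col-0 against 9 for IP-Svi-0, of which 6, 2, 1 and 0 came from 10, 16, 23 and 27 °C. The depth-adjusted ratio, Col-0 over IP-Svi-0, was 31.2 (95% exact interval 16.2 to 69.2) over all libraries and 21.1 (9.21 to 59.4) at 10 °C. It was 74 (19.7 to 623) at 16 °C and 44 (7.62 to 1760) at 23 °C. At 27 °C, with the IP-Svi-0 group set from 0 to the floor of 3 counts, Col-0 was 8.24-fold higher. The exact 95% lower bound from the counts themselves was 6.2. UGT79B1 was called lower in IP-Svi-0 over the mean of the temperatures (edgeR adjusted p = 6.87e-15) and at each temperature. It passed the filter level in 9 Col-0 and 0 IP-Svi-0 libraries, so these calls are not independent of how it came to be tested. Because the reference was that of Col-0, reads from a diverged IP-Svi-0 copy of the gene could go uncounted, and whether this had a part in the result was not tested.

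TT19, the transport glutathione S-transferase (chromosome 5, 5658416 to 5659661, plus strand, TAIR10.1), ranged from 7.97 to 36.3 CPM in Col-0, with a median of 18.9, and from 1.25 to 18.1 in IP-Svi-0, with a median of 6.36. The accessions overlapped at 23 °C and not at the other 3 temperatures. The log2 difference was -1.20 ± 0.27 (SE) over the mean of the temperatures (edgeR adjusted p = 0.000787). By temperature it was called at 16 °C alone (-1.79 ± 0.56, edgeR adjusted p = 0.0408), where leaving out any Col-0 library of that temperature, or IP-Svi-0 library 1 or 3, ended the call (0.0562 to 0.261). A filter at 1 CPM, a fit to the compared groups alone and the share of reads aligned to several places as a covariate ended it too (edgeR adjusted p = 0.0504, 0.0904 and 0.433). At 10, 23 and 27 °C the log2 differences were -0.80, -1.08 and -1.12 and were not called (edgeR adjusted p = 0.194, 0.315 and 0.316). TT19 passed the filter level in 5 Col-0 and 0 IP-Svi-0 libraries, so its testing was not independent of the accession difference. On its other strand, 108 bases of the TT19 exons (9.85%) overlap PSY, the phytoene synthase gene, whose level did not follow it (Pearson r = 0.08 over 24 libraries).

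**Figure D2:**
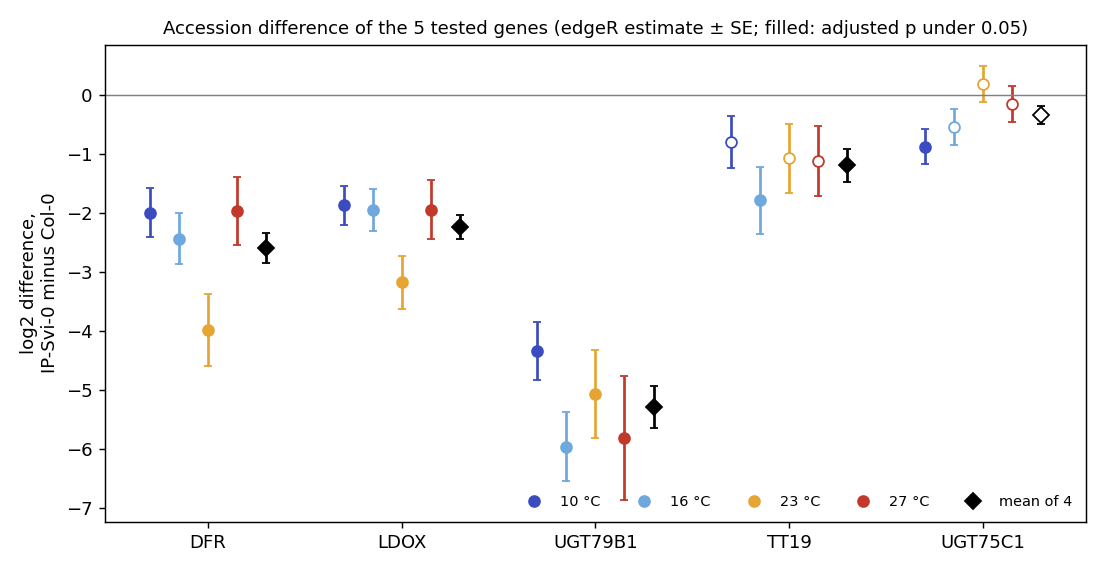
The log2 difference, IP-Svi-0 minus Col-0, of the 5 tested anthocyanin genes at each temperature (circles) and over the mean of the 4 (black diamonds), as the edgeR estimate ± SE; filled symbols have an adjusted p under 0.05. DFR and LDOX lie between -3.98 and -1.87 at the 4 temperatures, UGT79B1 lies below -4 (a fitted value, against 0 to 6 counts a group in IP-Svi-0), and UGT75C1 lies nearest 0.

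UGT75C1, the 5-O-glucosyltransferase, did not separate the accessions. Its level in Col-0 was 350.4, 678.4 and 581.4 CPM at 10 °C, 301.3, 485.3 and 640.0 at 16 °C, 244.5, 346.8 and 406.6 at 23 °C, and 280.7, 237.5 and 418.8 at 27 °C. In IP-Svi-0 it was 221.1, 270.9 and 384.3 CPM at 10 °C, 331.0, 358.5 and 281.4 at 16 °C, 326.6, 355.3 and 448.1 at 23 °C, and 324.6, 327.2 and 192.3 at 27 °C. The accessions overlapped at each temperature, and the libraries of Col-0 at 10 and 16 °C spread widely. The log2 difference over the mean of the temperatures was -0.35 ± 0.15 (SE) and was not called (edgeR adjusted p = 0.0736). Of 32 alternatives, which gave -0.44 to 0.05, 6 called it. These were with organelle genes left out (-0.38, adjusted p = 0.0448), without Col-0 library 1 at 10, 16 or 23 °C, and without IP-Svi-0 library 3 at 10 or 23 °C (edgeR adjusted p = 0.0183 to 0.0478). At 10 °C the log2 difference was called (-0.87 ± 0.30, edgeR adjusted p = 0.031), but with the share of counts at genes without an overlapping neighbour as a covariate it was 0.01 (adjusted p = 0.981). That share was 35.9% to 44.0% in Col-0, against 43.3% to 52.3% in IP-Svi-0 at 10 °C. The call was also lost without Col-0 library 2 or 3 or IP-Svi-0 library 1 or 2 of that temperature, and under either looser filter (edgeR adjusted p = 0.0503 and 0.056).

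UGT75C1 lies on chromosome 4 at 8122188 to 8123835 (TAIR10.1, minus strand, 1 exon), and 447 of its 1648 bases (27.1%) are exonic on the plus strand as well. Of these, 230 belong to AT4G14100, a protein-coding neighbour, and 217 to the long non-coding RNA gene AT4G06175, which was not analysed here. AT4G14100 averaged 467, 373, 171 and 89.6 CPM in Col-0 at 10, 16, 23 and 27 °C, and 137, 116, 60.6 and 39.3 CPM in IP-Svi-0. Its means were lower at each higher temperature in both accessions, and it was called lower in IP-Svi-0, with a log2 difference of -1.53 ± 0.16 (SE, edgeR adjusted p = 4.79e-10). Over the 24 libraries, its log2 level correlated with that of LDOX at r = 0.91 and with that of UGT75C1 at r = 0.58, while UGT75C1 and LDOX correlated at r = 0.37. These are descriptions across libraries that share depth and counting. Whether counts of the UGT75C1 transcript were recorded at the gene on the other strand was not tested.

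**Figure D3:**
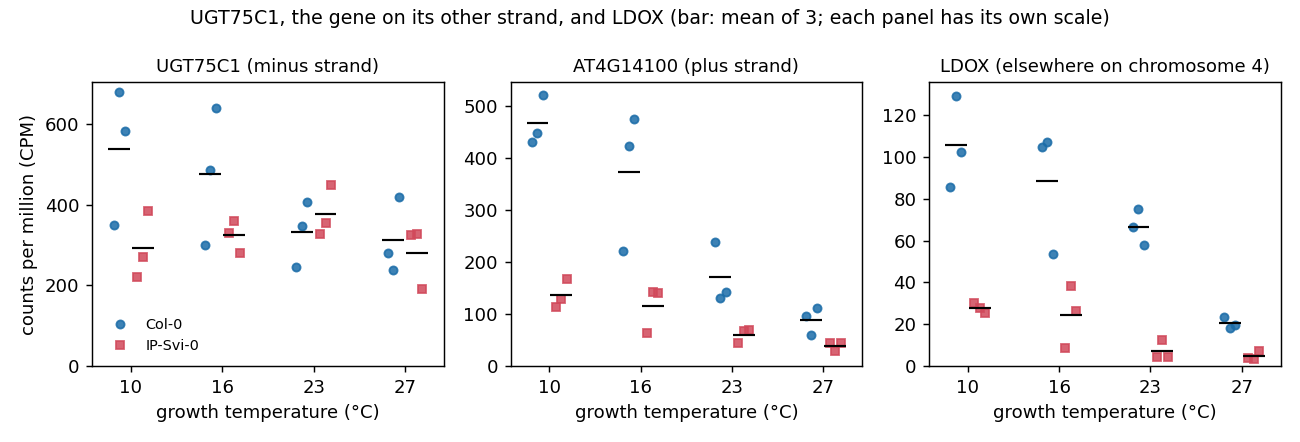
CPM (vertical axes, starting at 0, own scale per panel) by growth temperature in °C for UGT75C1, for AT4G14100 on its other strand and for LDOX; circles are Col-0 libraries, squares IP-Svi-0 libraries and bars means of 3. AT4G14100 averages 467 CPM in Col-0, against 137 in IP-Svi-0, at 10 °C and has the stepped pattern of LDOX, whereas UGT75C1 overlaps between accessions at each temperature.

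5MAT, the malonyltransferase (chromosome 3, 11398592 to 11400332, minus strand, TAIR10.1), had 66 Col-0 counts and 45 IP-Svi-0 counts. Its level ranged from 2.33 to 34.7 CPM in Col-0, with a median of 10.7, and from 0 to 15.6 in IP-Svi-0, with a median of 3.31. The accessions did not overlap at 23 °C and overlapped at the other temperatures. An exact permutation of the accession labels within temperatures (160000 arrangements, two-sided) gave p = 0.0152 for the mean difference, unadjusted for the 3 genes below the filter so tested, with a lower mean in IP-Svi-0 at 4 of 4 temperatures.

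The regulators were near the floor of these libraries. TT8, the bHLH partner (chromosome 4, 6181881 to 6186523, plus strand, TAIR10.1), had 59 Col-0 counts and 23 IP-Svi-0 counts. In Col-0 its level was 21.8, 20.2 and 23.3 CPM at 10 °C, 17.9, 9.46 and 8.21 at 16 °C, 6.27, 8.06 and 3.99 at 23 °C, and 3.73, 3.96 and 2.20 at 27 °C. In IP-Svi-0 it was 7.30, 3.63 and 5.82 CPM at 10 °C, 1.25, 3.66 and 3.50 at 16 °C, 2.24, 4.13 and 2.22 at 23 °C, and 0, 1.70 and 0 at 27 °C. The Col-0 libraries at 10 °C were the highest and lay apart from all other groups, and the accessions overlapped in CPM at 23 °C alone. At 27 °C the lowest Col-0 and the highest IP-Svi-0 library held 1 count each, so their order there rests on the scaling for depth. The same exact permutation test gave p = 2.5e-05, near the smallest it allows, 1.25e-05, with lower means at 4 of 4 temperatures.

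PAP1, the MYB activator (chromosome 1, 21233555 to 21235292, minus strand, TAIR10.1), had 31 Col-0 counts and 9 IP-Svi-0 counts. By temperature from 10 to 27 °C the counts of the 3 libraries summed to 11, 4, 10 and 6 for Col-0, against 5, 3, 0 and 1 for IP-Svi-0. At 23 °C, with the IP-Svi-0 group set from 0 to the floor of 3 counts, Col-0 was 2.25-fold higher. The exact 95% lower bound from the counts themselves was 1.52. Over all libraries the ratio was 4.25, with a lower 95% exact bound of 1.97. The exact permutation test gave p = 5e-04, with lower means at 4 of 4 temperatures. With no filter, edgeR called 5MAT, TT8 and PAP1 lower in IP-Svi-0 over the mean of the temperatures. Their log2 differences were -1.08 ± 0.35, -1.86 ± 0.43 and -2.49 ± 0.63 (SE, edgeR adjusted p = 0.0159, 0.000225 and 0.00105). A filter at 1 CPM called them too, where calls over all genes rose from 3298 to 4437. For DFR in Col-0 between 27 and 23 °C, edgeR without a filter gave -1.45 (adjusted p = 0.00538). The main fit gave -1.42 (edgeR adjusted p = 0.301). The UGT75C1 accession difference at 10 °C went the other way (0.0503 without a filter, against 0.031). The calls of 5MAT, TT8 and PAP1 thus rest on looser settings and on 111, 82 and 40 counts.

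Among the other regulators, PAP2, the close relative of PAP1, had 20 Col-0 counts and 3 IP-Svi-0 counts. The MYB genes MYB113 and MYB114 had 2 and 4, and 0 and 0. GL3 and EGL3, bHLH relatives of TT8, had 14 and 18, and 30 and 40 counts in the 2 accessions, and TTG1 had 26 and 35. None of these 6 passed the filter, and their counts are not scaled for depth. PAP1, PAP2, MYB113 and MYB114 are similar copies, and reads matching more than 1 of them could be left uncounted.

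Per length, and averaged over temperatures between which the order of some genes differed, UGT75C1 had the highest mean level in Col-0 (251 CPM per kb of exon), followed by DFR (54.1), LDOX (50.2), UGT79B1 (27.2), TT19 (17.3), 5MAT (6.83), TT8 (5.36) and PAP1 (4.97). In IP-Svi-0 the same measure was 193 for UGT75C1, 11.5 for LDOX, 10.3 for DFR, 7.82 for TT19, 2.86 for 5MAT, 1.47 for TT8, 0.9 for PAP1 and 0.617 for UGT79B1. In Col-0 at 10 °C LDOX was above DFR (75.5 and 70.8 CPM per kb), and at 27 °C UGT79B1 was below TT19 (7.13 and 9.72). Of the UGT75C1 exon bases, 27.1% are also exonic on the other strand, and the strand setting of the counting is not known. What part reads of the other strand had in its rank was not tested.

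Within an accession, each temperature was compared with 23 °C, so these comparisons share the 23 °C libraries. In Col-0, DFR, LDOX and UGT79B1 varied across the 4 temperatures when these were tested together (edgeR adjusted p = 0.00117, 3.98e-05 and 2.72e-05), against 9.76% of all tested genes. LDOX fell at 27 °C by 1.68 ± 0.34 on the log2 scale (SE, edgeR adjusted p = 0.022), where 0.0594% of all genes were called lower. That call was lost without any 1 of 5 of the 6 libraries compared (edgeR adjusted p = 0.0829 to 0.229). DFR and UGT79B1 had log2 differences of -1.42 ± 0.41 and -1.38 ± 0.40 at 27 °C, neither called (edgeR adjusted p = 0.301 each), although their libraries did not overlap with those at 23 °C. DFR was called there with no filter, with a filter at 1 CPM and with the compared groups alone (edgeR adjusted p = 0.00538, 0.00561 and 0.00485), and without the first IP-Svi-0 library at 16 °C (0.0301). UGT79B1 was higher at 16 °C by 1.32 ± 0.34 on the log2 scale (SE, edgeR adjusted p = 0.042), where 0.515% of genes were called higher, but DESeq2 did not call it (adjusted p = 0.0713). With the share of reads aligned to several places as a covariate, that call was also lost (edgeR adjusted p = 0.851). It was lost as well without Col-0 library 2 or 3 at 16 °C, Col-0 library 2 or 3 at 23 °C, Col-0 library 2 at 27 °C or IP-Svi-0 library 2 at 10 °C (0.0507 to 0.268). At 10 °C none of the 5 tested genes was called by edgeR or DESeq2, against 6.69% of genes, with 3 of 5 at an unadjusted p under 0.05.

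In IP-Svi-0, DFR and LDOX varied across the temperatures (edgeR adjusted p = 0.00612 and 0.000383), against 16.5% of genes. Both rose at 10 °C relative to 23 °C, DFR by 2.54 ± 0.69 and LDOX by 1.93 ± 0.49 on the log2 scale (SE, edgeR adjusted p = 0.0101 and 0.00554), against 5.77% of genes called higher. The DFR call rests on few counts (59 at 10 °C, 6 at 23 °C) and was lost without the first IP-Svi-0 library at 23 °C (edgeR adjusted p = 0.0566). At 16 °C DFR and LDOX had log2 differences of 2.35 ± 0.72 and 1.66 ± 0.51, not called (edgeR adjusted p = 0.0985 and 0.104), where 0.792% of genes were called. Without the low first library at 16 °C they were 3.01 and 2.13 and were called (edgeR adjusted p = 0.00514 and 0.0164). At 27 °C edgeR called 0 of the 5 genes and 0% of all genes, with 0 of 5 and 681 of all genes at an unadjusted p under 0.05, and DESeq2 called 0 of 5.

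Whether the temperature response differed between accessions was tested as an interaction. The log2 difference between 10 and 23 °C in IP-Svi-0 minus that in Col-0 was 1.98 ± 0.81 for DFR and 1.3 ± 0.59 for LDOX, neither called (SE, edgeR adjusted p = 0.137 and 0.174), against 5.45% of genes. At 16 and 27 °C, and over the 3 terms together, edgeR and DESeq2 called none of the 5 genes, with 1, 1 and 0 at an unadjusted p under 0.05 in edgeR. The share of all genes called was 0% at 16 °C, 0% at 27 °C and 1.43% for the 3 terms together. DFR passed the threshold for the 10 °C interaction under 4 alternatives: without a filter (2.11, edgeR adjusted p = 0.0453), with a filter at 1 CPM (2.15, 0.0363), with the compared groups alone (2.05, 0.0313) and without the first IP-Svi-0 library at 16 °C (0.044). UGT75C1 passed it without Col-0 library 1 at 10 °C (edgeR adjusted p = 0.0478).

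The rest of the pathway was followed in 4 lists of 47 genes, 28 of them tested. Over the mean of the temperatures, 2 were called higher in IP-Svi-0 and 6 lower, against 16% and 16.7% of all tested genes, with a median log2 difference of -0.01 beside 0.02 over all genes. Among 9 early flavonoid and flavonol genes, 8 were tested and 3 were lower: F3'H, the B-ring hydroxylase (-0.86 ± 0.18, edgeR adjusted p = 0.000309), F3H, the flavanone hydroxylase (-0.75 ± 0.12, 7.38e-06), and CHS, chalcone synthase, the entry enzyme (-0.46 ± 0.13, 0.00642). At 23 °C their log2 differences were -1.49, -1.07 and -0.996, all called, and FLS1, the flavonol synthase, was also called (-0.77 ± 0.24, edgeR adjusted p = 0.0338). At 16 °C F3'H and F3H were called lower and at 27 °C edgeR called 0 of the 28 genes, with 2 at an unadjusted p under 0.05. F3H shares 1415 bases of exon with AT3G51238 on the other strand, which averaged 10000 CPM in Col-0 and 4340 CPM in IP-Svi-0 (log2 difference -1.12 ± 0.19, edgeR adjusted p = 8.43e-06). What part reads of that strand had in the F3H values was not tested.

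**Figure D4:**
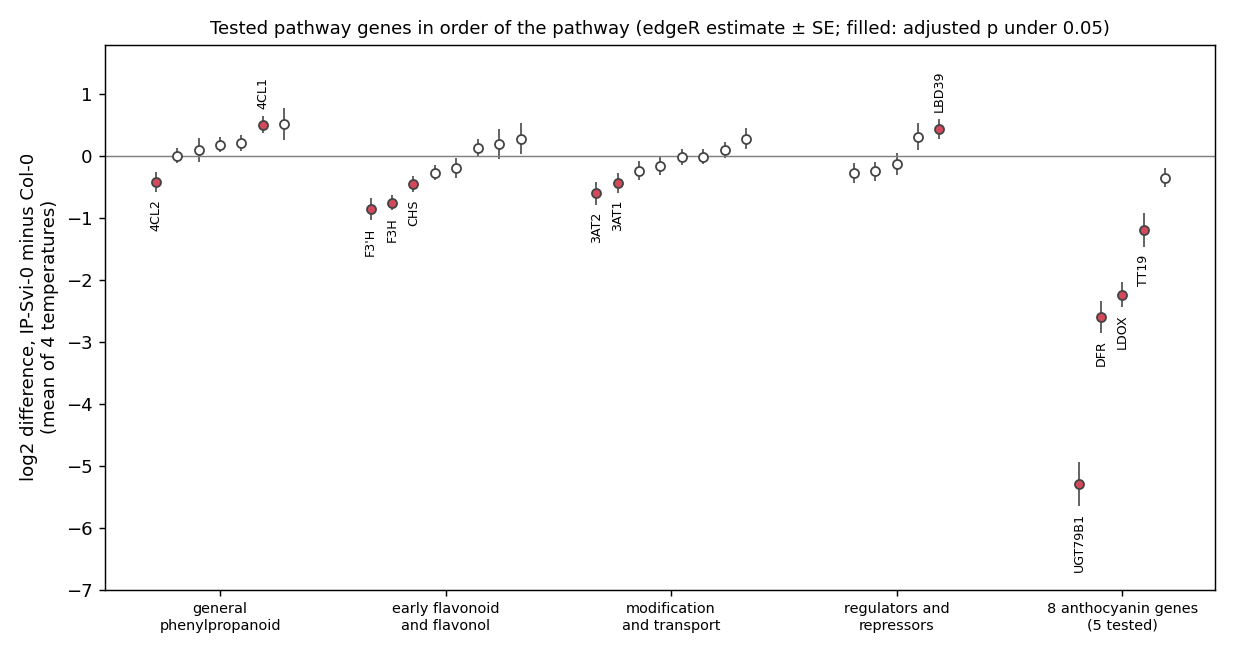
The log2 difference, IP-Svi-0 minus Col-0 over the mean of the 4 temperatures (edgeR estimate ± SE), of 28 tested pathway genes in 4 lists and of the 5 tested anthocyanin genes; filled symbols have an adjusted p under 0.05 and are named. The 28 genes lie between -0.86 and 0.52, and DFR, LDOX, UGT79B1 and TT19 lie below all of them.

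Of 7 general phenylpropanoid genes, all tested, 4CL1 was higher (0.51 ± 0.14, edgeR adjusted p = 0.00402) and 4CL2 lower (-0.42 ± 0.16, 0.0409). Both encode 4-coumarate ligases. PAL2, a phenylalanine ammonia-lyase, was higher in IP-Svi-0 at 10 °C (0.93 ± 0.24, edgeR adjusted p = 0.004). Of 14 flavonoid modification and transport genes, 8 were tested and the anthocyanin acyltransferase genes 3AT2 and 3AT1 were lower over the mean of the temperatures (-0.60 ± 0.19 and -0.43 ± 0.16, edgeR adjusted p = 0.0117 and 0.0342). By temperature both were called at 10 °C alone (-1.86 and -1.21, edgeR adjusted p = 0.00284 and 0.0114). At 16 °C they were -0.96 and -0.75, at 23 °C 0.21 and 0.16, and at 27 °C 0.22 and 0.08. Of 17 regulators and repressors, 5 were tested, and LBD39, a nitrogen-linked repressor of anthocyanin genes, was higher (0.44 ± 0.16, edgeR adjusted p = 0.0328). Its relative LBD38 was higher at 10 °C (1.22 ± 0.43, edgeR adjusted p = 0.0336).

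3AT2 had its lowest means at 10 °C, where DFR and LDOX were high. Its mean was 51.7, 138, 176 and 367 CPM at 10, 16, 23 and 27 °C in Col-0, and 15.4, 70.2, 203 and 426 CPM in IP-Svi-0. At 10 °C relative to 23 °C Col-0 had a log2 difference of -1.76 and IP-Svi-0 one of -3.82, and the interaction was called (-2.07, edgeR adjusted p = 0.0318). 3AT1 fell as well, with log2 differences of -1.15 and -2.52. In IP-Svi-0, 5 of the 28 genes rose at 10 °C, among them FLS1 (0.99) and CHI, chalcone isomerase (0.96), and 4 fell, including LBD39 (-1.26), against 5.77% and 9.98% of all tested genes. In Col-0, 3AT2 and 3AT1 were the 2 of 28 called at 10 °C, both lower, against 2.85% of all tested genes called lower.

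The tested genes whose log2 CPM followed each anthocyanin gene most closely over the 24 libraries were listed by Pearson r, as a description of libraries that differ in accession, temperature and depth. For DFR they were LDOX (r = 0.943), F3'H (0.914) and GRP9, a glycine-rich protein gene (0.909). For LDOX they were F3H (0.968), DFR (0.943) and AT4G14100 (0.911). Within the 12 libraries of each accession, DFR and LDOX had r of 0.926 (Col-0) or 0.833 (IP-Svi-0). TT19 was most like PAF1 (0.850), AT5G56670 (0.827) and GRP9 (0.823). UGT79B1 was most like AT1G63860 (0.953), AT1G79170 (0.948) and AT2G10405 (0.947), 3 genes with fitted log2 differences between accessions of -6.22, -4.67 and -8.86. Within IP-Svi-0 those r values were 0.132, 0.617 and 0.132, where UGT79B1 had 9 counts in all. UGT75C1 was most like AT3G01202 (0.955), CSY3 (0.953) and AT2G45990 (0.951), each of which, like UGT75C1, shares exon bases with a gene on the other strand (1029, 47 and 411). This is not particular to them, as F3H (1415), AT4G14100 (230), AT2G10405 (122) and AT5G56670 (106) share such bases too. Genes without such an overlap held 34.7% to 52.8% of the counts at nuclear genes in each library.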

How the data were processed

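Whole seedlings were profiled by strand-specific RNA sequencing. Per the submitters' processing notes, FastQC, HISAT2, HTSeq, Cufflinks and Cuffdiff were used with the TAIR10 genome. No source used here gives their versions or the strand setting. The table that was deposited has the authors' raw counts per gene in 24 libraries, all used; reads not assigned to a gene stayed out of library sizes. Gene positions, overlaps and sequences were read from RefSeq TAIR10.1.

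The main test was the quasi-likelihood F test of edgeR 4.0.16 (R 4.3.3) on TMM-scaled libraries, with 1 mean per group over 24 libraries, after filterByExpr at a minimum count of 10, which left 10097 genes; DESeq2 1.42.0 was an alternative. The steps were tested on simulated data. SE was taken as log2 change divided by the root of F. The members and lists were chosen with earlier results of these data known. Other genes were named by rule: up to 2 called pathway genes in each direction per comparison, 6 regulators, and the 3 most correlated genes per tested member. Replicates differed by more than sampling noise (chi-square per degree of freedom 1.72 to 9.06).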

Additional observations from a re-analysis of the deposited data

How the results depend on the processing

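The 17 counts of called anthocyanin genes were recomputed under 9 other settings and without each library in turn. Of 151 values with all libraries kept or with the compared groups alone, 136 stayed within 1.5 times; the latter setting has no value for the mean over temperatures and the joint interaction, which use all groups. With no filter, or with one at 1 CPM in 3 libraries, 7 of 8 genes were called over the mean of the temperatures (4 with the filter), because 5MAT, TT8 and PAP1 entered the test. At 1 CPM, the calls over all genes for that mean also rose, from 3298 to 4437. Both filters gave 2 calls in Col-0 at 27 °C, 1 in IP-Svi-0 at 16 °C and 1 for the 10 °C interaction. In IP-Svi-0 at 16 °C the calls over all genes rose from 80 to 143 with the filter at 1 CPM. With the compared groups alone there were 2 calls in Col-0 at 27 °C and 1 for the 10 °C interaction. Col-0 at 16 °C had 0 calls with the filter at 1 CPM, with either covariate and in DESeq2. With the share of reads aligned to several places as a covariate (chosen after seeing the data) 2 genes were called between accessions at 16 °C, and 336 of all genes in place of 830. The UGT75C1 difference at 10 °C turned to 0.0132 with the overlap-free share as a covariate, where 1054 genes were called in place of 2422. Over all genes, the calls moved from 550 to 34 for the 10 °C interaction with that covariate, from 124 to 6 in Col-0 at 16 °C with the share aligned to several places, and from 11 to 41 in Col-0 at 27 °C with the compared groups alone. Causes of these changes were not tested. Leaving out 1 library gave 4 to 5 calls over the mean of the temperatures, 3 to 4 at 10 °C, 3 to 4 at 16 °C, 3 at 23 °C and 2 to 3 at 27 °C; 0 to 1 in Col-0 at 16 °C and 0 to 2 at 27 °C; 1 to 2 in IP-Svi-0 at 10 °C, 0 to 2 at 16 °C and 2 to 3 over all temperatures; and 0 to 1 for the 10 °C interaction. Same-numbered libraries correlated weakly (84 pairs, r from -0.34 to 0.29, median 0.03, against a median of -0.008 for other numbers). Of 24 libraries, 13 were best with their own number, and whether libraries were paired by number was not tested further. With the replicate block 4 genes were called over the mean of the temperatures, as without it. Depth limits 5MAT, TT8 and PAP1 (111, 82 and 40 counts in all) and UGT79B1 in IP-Svi-0 (9 counts).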
